A study of Saccharomyces cerevisiae with 5 samples.

Results

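The genes described are the nuclear genes of oxidative phosphorylation in budding yeast, Saccharomyces cerevisiae: the subunits of succinate dehydrogenase, the NADH dehydrogenases, cytochrome bc1, cytochrome c, cytochrome c oxidase and the ATP synthase with its inhibitor. They were chosen by gene symbol from a list of 41, not by any measured value, and all 41 were found among 5583 genes with a symbol on the arrays. The table of arrays 1 to 3 held all 41, in 50 spots, and the table of arrays 4 and 5 held 39, in 78 spots, with no spot named for ATP18 or TIM11. On 5 spotted arrays with 2 channels, cDNA of RNA that co-purified with zz-tagged Yra1 was set against cDNA from a control purification with only the zz tag. Yra1 is an adaptor protein of nuclear mRNA export, and zz is an affinity tag derived from the IgG-binding domains of protein A. Arrays 1, 2 and 5 carried the zzYra1 immunoprecipitate in channel 2, and arrays 3 and 4 carried it in channel 1, with the zz immunoprecipitate in the remaining channel. The labels used here give no strain, growth medium or temperature. They also do not say whether each array had a culture of its own, and p-values here therefore reflect spread from array to array that may be purely technical.

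In respiring cells electrons from succinate and NADH pass through ubiquinone, cytochrome bc1 (complex III), cytochrome c and cytochrome c oxidase (complex IV) to oxygen, and the ATP synthase (complex V) uses the resulting proton gradient. S. cerevisiae has no proton-pumping complex I and uses single-chain NADH dehydrogenases in its place. The mRNAs of the genes described here are made in the nucleus and must be exported before their proteins are made and imported into mitochondria, while a few core subunits are encoded in the mitochondrial genome and are not among them. Glucose represses many of these genes.

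Values are log2 ratios of the channels, set to 0 at the median gene of each array. Which immunoprecipitate was the numerator could not be settled, so a sign says only above or below the median gene. The centring also removes any shift that most genes share. A value was present for 44.3% of all genes on array 1, 51.1% on array 2, 97.6% on array 3, 23.9% on array 4 and 19.8% on array 5. The standard deviation over genes was 2.51 log2 units on array 4 and between 0.91 and 1.14 on the others. Of all genes with a value, 67.8% lay over 1 log2 unit from the median gene on array 4, against 18.8% on array 1, 20.9% on array 2, 25.8% on array 3 and 36.2% on array 5.

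On arrays 1 to 3 the spots named for one gene did not share their values. Among 1100 genes with 2 spots on that table, the correlation of the spots across genes was 0.034 over 225 pairs on array 1, 0.11 over 258 pairs on array 2 and -0.026 over 1022 pairs on array 3. Having a value was shared little more than the values were: on array 1 the second spot had one for 62.8% of genes whose first spot had one and for 56.3% of the rest, and on array 2 for 43.0% and 41.8%. On arrays 4 and 5, where the 2 spots of a gene have adjacent numbers, these shares were 82.8% and 5.03% on array 4 and 80.7% and 4.06% on array 5. The correlation of the spots was 0.80 over 909 pairs on array 4 and 0.86 over 731 pairs on array 5. Genes are not independent replicates, adjacent spots may also share their place on the slide, and whether the symbols of arrays 1 to 3 belong to their spots was not tested. The same applies to each value of arrays 1 to 3 given here, and results for members with 1 spot on that table are given apart where they differ.

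Of the oxidative phosphorylation genes, 9 had 2 spots on the table of arrays 1 to 3: SDH1, SDH3, NDI1, NDE1, COX4, COX8, COX12, COX13 and ATP18. Both spots had a value for all 9 on array 3, where they differed by between 0.78 and 2.67 log2 units, with a median of 1.45, against a median of 1.03 over all such genes. The spots of COX13 lay at -0.80 and 1.74 there, those of SDH1 at 0.40 and -2.28, and those of SDH3 at -0.83 and 1.39. In 3 of the 9 genes both spots lay on the same side of the median gene. On array 4, 12 members had both spots measured, with a median difference of 0.37 against 0.45 over all genes, and 8 of the 12 agreed to within 1 log2 unit. COX4 (-0.24 and -0.24), COX13 (1.37 and 1.26) and COX6 (1.35 and 1.45) were among the closest. The widest gap was that of QCR2, with spots at 4.29 and -6.19, followed by ATP2 at -2.02 and 1.92. On array 5 all 7 members with both spots agreed to within 1 log2 unit.

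**Figure D1:**
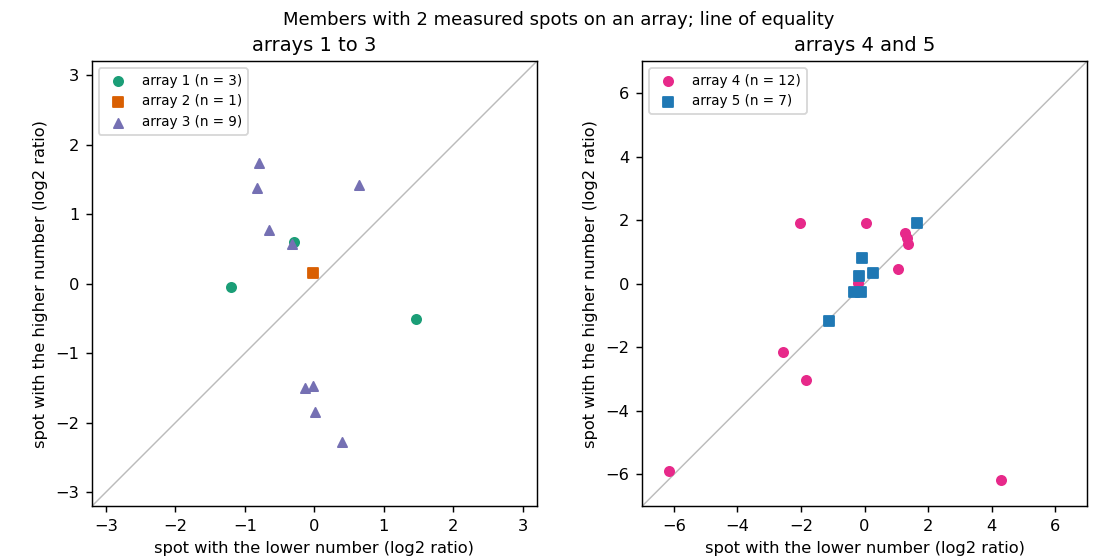
Log2 ratio of one spot against the other for members with 2 measured spots of the same gene on an array, each relative to the median gene, with the line of equality. Points of arrays 4 and 5 lie near the line apart from QCR2 and a few others, and the 9 points of array 3 do not.

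The oxidative phosphorylation genes had a value more often than the average gene on 4 of the 5 arrays. On array 1, 22 of 41 were measured, or 53.7% (95% Wilson interval 38.7% to 67.9%), where 44.3% of all genes were. Array 2 measured 27 of 41, or 65.9% (50.5% to 78.4%), beside 51.1% of all genes. Array 4 measured 16 of 39, or 41.0% (27.1% to 56.6%), beside 23.9%, and array 5 measured 10 of 39, or 25.6% (14.6% to 41.1%), beside 19.8%. On array 3 the 40 of 41 members were 97.6%, as for all genes. The intervals treat genes as independent and cover counting error only. Those of arrays 1, 2 and 5 include the share of all genes, and that of array 4 lies above it. Counting a gene only where every one of its spots had a value, the members' shares were 39.0%, 51.2%, 30.8% and 17.9% on arrays 1, 2, 4 and 5, against 34.4%, 41.1%, 16.3% and 13.2% of other genes. Among genes with 1 spot on the table of arrays 1 to 3, members were measured at 40.6% on array 1 against 37.8% of other genes, at 62.5% against 45.4% on array 2, at 38.7% against 24.1% on array 4, and at 32.3% against 20.2% on array 5. Every member had a value on at least 1 array, as did 99.3% of other genes. Values on at least 4 arrays existed for 11 of 41 members (26.8%), against 13% of all genes. No member had values on all 5, against 2.63% of other genes.

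The complexes differed in how often they were seen on arrays 4 and 5. Complex IV had a value on array 4 or 5 for 8 of 9 genes (88.9%), with COX12 the one missing, and 7 of the 9 had one on array 4. Both cytochrome c genes had a value on array 5 and neither on array 4. Complex III had a value on either array for 4 of 9 genes (44.4%), complex II for 2 of 4 and the ATP synthase for 6 of 12. None of the 3 NADH dehydrogenase genes had a value on either. Over all genes the share was 33.9%. Only 4 members, QCR8, COX6, COX9 and ATP2, had values on both of these arrays, which is 10.3% of 39 members against 9.85% of other genes. Of the 16 members with a value on array 4 that is 25%, while 41.2% of all genes with a value on array 4 also had one on array 5. The sizes of these groups are small, and no test of the difference between complexes was made. No label used here gives the reason for missing values.

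**Figure D2:**
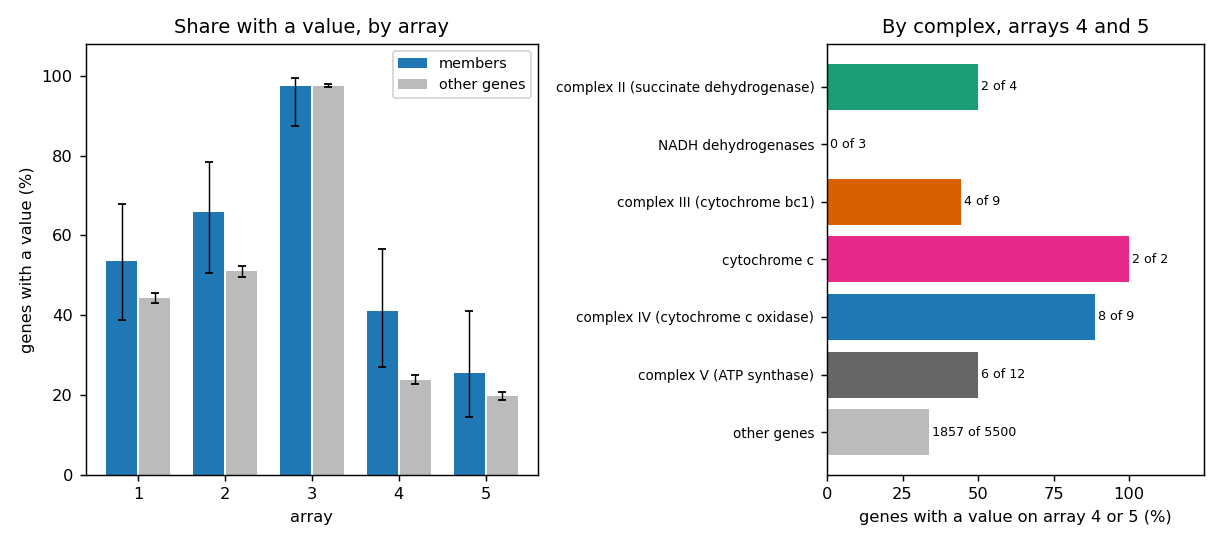
Left, percentage of genes with a value on each array, for the oxidative phosphorylation genes and all other genes, with 95% Wilson intervals. Right, percentage with a value on array 4 or array 5 for each complex and for other genes, with counts; complex IV reached 8 of 9 and the NADH dehydrogenases 0 of 3, against 1857 of 5500 other genes.

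As a group the members had medians near the median gene on each array in the values used here. These were 0.17, 0.00, -0.03, 0.18 and -0.04 log2 units on arrays 1 to 5, and 14 of 22, 14 of 27, 19 of 40, 8 of 16 and 5 of 10 lay above 0. On array 4 the median was -0.08 for members with 1 spot on the table of arrays 1 to 3. With each spot set against its neighbours, as described further on, it was 0.69 there, over the 11 members that could be so treated, and -0.21 on array 3. Values over 1 log2 unit from the median gene were found for 5 of 22 members on array 1, 7 of 27 on array 2, 12 of 40 on array 3, 9 of 16 on array 4 and 3 of 10 on array 5. These are 22.7%, 25.9%, 30.0%, 56.3% and 30.0%, beside the shares of all genes given above. Among genes with 1 spot on the table of arrays 1 to 3, the members' shares were 38.5% on array 1 (5 of 13), 30.0% on array 2, 35.5% on array 3, 66.7% on array 4 and 30.0% on array 5, against 20.1%, 21.9%, 28.01%, 67.7% and 36.4% of other such genes. No test of these differences was made. On array 1 all 5 were above the median gene, namely SDH2, COR1, ATP3, ATP16 and ATP5, as were 357 of the 461 other genes that far from it.

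**Figure D3:**
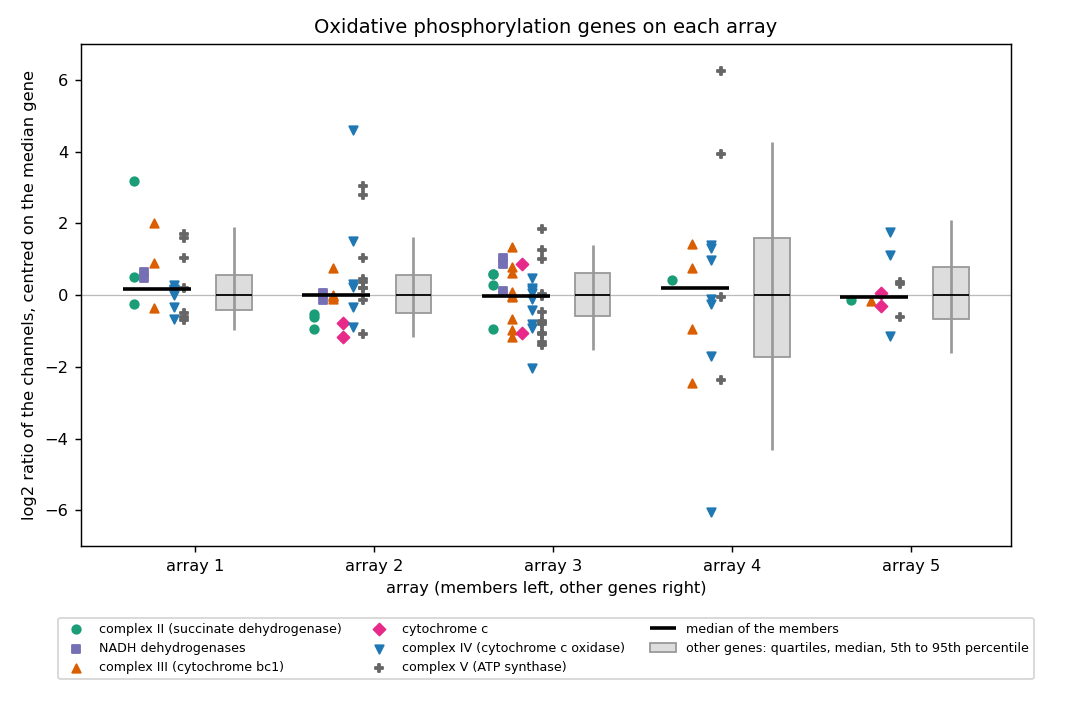
Centred log2 ratios of the members with a value on each array, by complex, with their median, beside the quartiles, the median and the 5th to 95th percentile of other genes. Medians of the members lie between -0.04 and 0.18, and the widest spread is on array 4.

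Among the NADH dehydrogenases, NDI1, the enzyme that faces the matrix, lay at 0.48, -0.14 and 1.04 on arrays 1 to 3. NDE1, one of the enzymes that face the intermembrane space, lay at 0.65, 0.07 and 0.12 on the same arrays. Its paralogue NDE2 was measured on array 3 alone, at 0.87. The values of all 3 genes were thus above the median gene on array 3, by unequal amounts. That of NDE1 is the mean of spots at -0.32 and 0.57, and the 0.48 of NDI1 on array 1 is the mean of spots at 1.47 and -0.51. Neither NDI1 nor NDE1 lay far from the median gene on array 2.

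In complex II, SDH1, the flavoprotein subunit, was below the median gene on the 3 arrays that measured it, at -0.25, -0.53 and -0.94 on arrays 1, 2 and 3, the last being the mean of spots on opposite sides of it. SDH2, the iron-sulphur subunit that passes electrons on to ubiquinone, lay at 3.19 on array 1, the highest member of that array, and at -0.62 and 0.58 on arrays 2 and 3. SDH3 and SDH4 are the membrane anchors. SDH3 lay at 0.50, -0.95, 0.28 and 0.42 on arrays 1 to 4. SDH4 lay at 0.57 on array 3 and -0.13 on array 5. The 3 genes measured on array 2 were all below the median gene there. On array 3 only the value of SDH1 was below it, but that of SDH3 is also a mean of spots on opposite sides, at -0.83 and 1.39.

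Complex III gave few repeated values. COR1 and QCR2 encode the core subunits: COR1 lay at 2.02 and 0.62 on arrays 1 and 3, and QCR2 at 0.00, 1.35 and -0.95 on arrays 2, 3 and 4, the last being the mean of the discordant spots above. RIP1, the Rieske iron-sulphur protein, lay at -0.06, -1.16 and 0.76 on arrays 2, 3 and 4, and CYT1, cytochrome c1, at 0.76 and -0.06 on arrays 2 and 3. QCR8, a small ubiquinone-site subunit, lay at -0.35, 0.79, 1.43 and -0.18 on arrays 1, 3, 4 and 5. It was therefore above the median gene on both arrays with zzYra1 in channel 1 and below it on both with zzYra1 in channel 2 that measured it, although set against neighbouring spots it lay at 0.29 on array 5. QCR6, the acidic subunit, lay at 0.90, -0.02 and -0.67 on arrays 1 to 3, and QCR7 at 0.08 on array 3. The QCR9 and QCR10 genes contain introns. QCR9 lay at -0.11, -0.04 and -2.44 on arrays 2, 3 and 4, and QCR10 at -0.96 on array 3 alone.

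CYC1 and CYC7 encode the isoforms of cytochrome c, of which CYC1 is the main one in aerobic cells and CYC7 the one favoured under low oxygen. CYC1 lay at -1.18, -1.05 and -0.30 on arrays 2, 3 and 5, below the median gene on each. CYC7 lay at -0.78, 0.86 and 0.05 on the same arrays. CYC1 was below CYC7 on all 3 arrays, with differences of -0.40, -1.91 and -0.35 log2 units on arrays 2, 3 and 5. These are differences between ratios and not between levels. Array 3 carried zzYra1 in channel 1, and arrays 2 and 5 carried it in channel 2. If array 3 is turned, as in the channel reading described further on, neither CYC1 nor the pair keeps one sign on all 3 arrays. No test was made of the pair, and related sequences can bind the same cDNA.

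Complex IV held 6 of the 11 members with values on 4 arrays. COX5A and COX5B encode alternative forms of one subunit, used with and without oxygen. COX5A lay at -0.01, 1.51, -2.05 and 1.11 on arrays 1, 2, 3 and 5, so that its lowest value was on the one array with zzYra1 in channel 1. The array 5 value rests on 1 of its 2 spots. COX5B, which contains an intron, lay at -0.33, 0.15 and -1.69 on arrays 2, 3 and 4. Both isoform genes had values on arrays 2 and 3, where COX5A minus COX5B was 1.85 and -2.20 log2 units.

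The other complex IV genes encode small subunits around the mitochondrially encoded core. COX6 lay at 0.16, -0.11, 1.40 and 1.77 on arrays 1, 3, 4 and 5, with concordant spots on both of the last. COX9 lay at 4.60, -0.42, -0.10 and -1.15 on arrays 2 to 5, and the first of these was the highest member value of array 2. COX7 lay at -0.35, 0.30 and 0.19 on arrays 1 to 3 and at -6.04 on array 4, where its spots gave -6.17 and -5.90. COX8 lay at 0.15, -0.89, -0.92 and 0.99 on arrays 1 to 4. Its spots lay on opposite sides on array 1, at -0.30 and 0.60, and on array 3, at 0.01 and -1.85. The array 2 value of COX8 rests on 1 of its 2 spots, and its array 4 spots lay at 0.05 and 1.93. COX13 was above the median gene on all 4 arrays that measured it, at 0.15, 0.23, 0.47 and 1.32 on arrays 1 to 4, although the 0.47 is the mean of spots on opposite sides of the median gene. COX4 lay at 0.29, 0.06 and -0.24 on arrays 1, 3 and 4, where the value of array 3 is the mean of spots at -0.65 and 0.77. Against neighbouring spots it lay at -1.87 on array 4. COX12 lay at -0.66 and -0.81 on arrays 1 and 3.

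The catalytic head of the ATP synthase is formed by ATP1 and ATP2, the alpha and beta subunits. ATP1 lay at 0.20, 1.83 and -0.61 on arrays 2, 3 and 5, and ATP2 at 1.02, -1.30, -0.05 and 0.37 on arrays 2 to 5. On array 3 these partners thus lay on opposite sides of the median gene, as the highest member there and one of the lowest. Of the rotor stalk, ATP3 (gamma) lay at 1.69, 0.19 and -1.06 on arrays 1 to 3. ATP15 (epsilon) lay at -0.69, 0.45, -0.80 and -2.37 on arrays 1 to 4, and ATP16 (delta) at 1.60 on array 1. ATP16 was the one member without a value on array 3.

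In the peripheral stalk, ATP5, the subunit that confers oligomycin sensitivity, lay at 1.03, -1.08, -1.08 and 6.23 on arrays 1 to 4. ATP4 lay at -0.48 and 3.94 on arrays 3 and 4. On array 4 both genes had a value on 1 of 2 spots, so the high values have no second spot on the same slide. ATP7 lay at 0.37 and -1.40 on arrays 2 and 3, and ATP14 at 0.19 and 1.25 on arrays 1 and 3. The membrane subunits ATP18 and TIM11 lay at 3.03 and 2.80 on array 2, where the ATP18 value rests on 1 of its 2 spots. ATP18 lay at -0.62 and -0.75 on arrays 1 and 3, and TIM11 at 1.01 on array 3. ATP20, which with TIM11 helps synthase dimers form, lay at -0.51 and -0.72 on arrays 1 and 3, and ATP17 at -0.13 and 0.04 on arrays 2 and 3. INH1, the inhibitor that blocks ATP hydrolysis, stayed close to the median gene, at -0.02 on array 3 and 0.31 on array 5. Of 13 synthase genes on array 3, 9 lay below the median gene, against 2 of 9 on array 2. ATP16 had no value on either, ATP4, ATP14, ATP20 and INH1 none on array 2. Below the median gene were also 3 of 7 synthase genes on array 1, 2 of 4 on array 4 and 1 of 3 on array 5. Of other genes, 2703 of 5408 lay below it on array 3.

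Each spot was also set against the median of up to 20 spots on either side in spot number. Several of the most extreme values changed little and others changed much. SDH2 then lay at 3.41 on array 1, COX9 at 4.45, ATP18 at 2.93 and TIM11 at 2.88 on array 2, and ATP5 at 5.15 on array 4. For COX7 on array 4 it gave -1.81 in place of -6.04, and for ATP4 1.16 in place of 3.94. ATP3 on array 1 lay at 0.24 in place of 1.69, COX13 on array 4 at -0.23 in place of 1.32, and ATP2 on array 4 at -3.76 in place of -0.05. COX13 was then no longer on one side of the median gene, being at -0.13 on array 1 as well. The same was true of SDH1, at 0.02 on array 1, and of NDE1, at -0.08 on array 2. QCR9 had been below the median gene on arrays 2, 3 and 4. It then lay at 0.06 and 0.24 on arrays 2 and 3, and could not be so treated on array 4. CYC1 stayed below the median gene on arrays 2 and 3, at -1.24 and -1.51, and could not be so treated on array 5. COR1 on array 1 had too few neighbours. The step could be applied to 11 of 16 members with a value on array 4 and 4 of 10 on array 5.

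The design asks which RNAs came down with zzYra1 more, or less, than with the zz tag. For this a linear model over all genes with values on at least 4 arrays was fitted in limma, with the orientation of the channels as a term. In the channel reading of the signs, the same channel is the numerator on every array and arrays 3 and 4 are turned. In the other reading, the deposited signs are taken as already turned. No member passed an adjusted p of 0.05 in limma in either reading, among 11 tested, and 0% of 725 genes did. At an unadjusted p under 0.05 there was 1 member of 11 in the channel reading, against 2.62% of all genes, and 0 in the other, against 3.45%. The members' median was 0.16 in the channel reading, beside 0.06 over all genes tested, and 0.06 in the other, beside 0.07. Above 0 lay 6 of the 11 in the channel reading, where 52.6% of all genes did, and 7 in the other, where 54.1% did.

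COX5A was the member with the smallest p. Its fitted value in the channel reading was 1.46 ± 0.62 log2 units (SE over 4 arrays, limma adjusted p = 0.905, 0.0440 before adjustment), and its turned sign was shared by 3 of 4 arrays. Array 3 is the only array with zzYra1 in channel 1 that measured it, so the spread of that orientation does not enter its error. COX7 had the next smallest p, at 1.45 ± 0.91 in the channel reading (limma adjusted p = 0.905) and -1.47 ± 0.91 in the other (limma adjusted p = 0.903), with its extreme value on array 4. ATP5 lay at -1.30 ± 1.05 in the channel reading beside 1.28 ± 1.05 in the other, again with array 4 as the extreme. The rest lay between -0.69 (QCR8) and 0.99 (COX9) in the channel reading and between -0.85 (ATP15) and 0.80 (COX6) in the other, each with a limma adjusted p of 0.903 or more. The 95% intervals, which are not adjusted, reached between 1.15 and 2.41 log2 units to either side, so a smaller shift of a member was not detectable with these arrays. Larger shifts could also go uncalled, because calls were made after adjustment over all genes tested. COX5A, whose interval excluded 0, was not called.

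**Figure D4:**
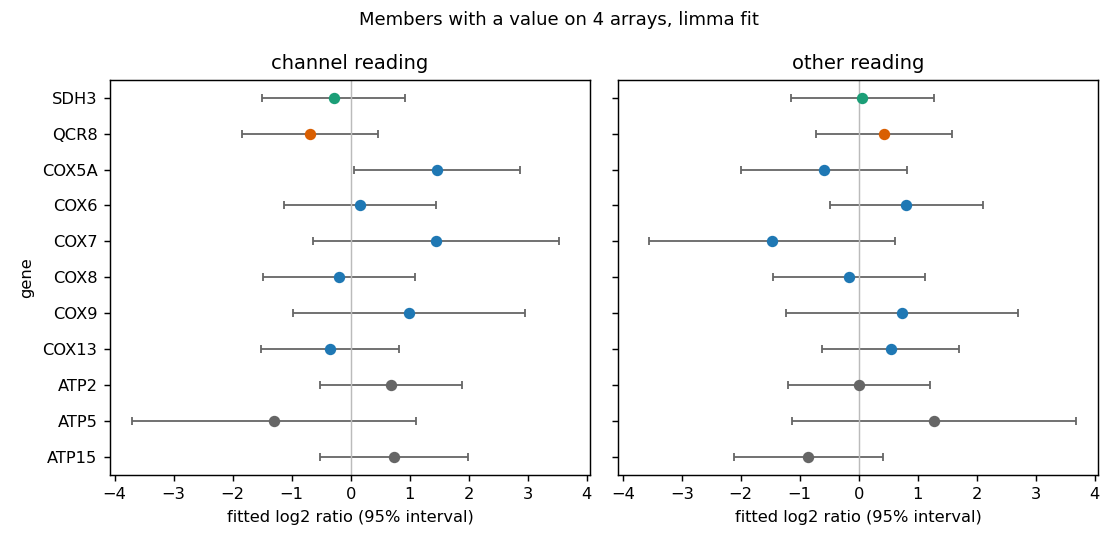
Fitted log2 ratios with 95% intervals for the 11 members with values on 4 arrays, in the channel reading (left) and the other reading (right), coloured by complex. All intervals include 0 apart from that of COX5A in the channel reading (0.05 to 2.87), which did not pass after adjustment over 725 genes and rests on 1 array of one orientation.

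Among all genes with values on both arrays of a pair, the share on the same side of the median gene was taken. That share was lowest for arrays 1 and 5, at 46.2%, and highest for arrays 4 and 5, at 51.6%. For pairs of one orientation it was 49.5% on arrays 1 and 2 and 49.4% on arrays 3 and 4. The sign agreed on every array with a value for 2 of 11 members in the channel reading, ATP2 and QCR8, where it did for 10.6% of all genes. In the other reading it agreed for 1, COX13, where 9.93% of all genes did. ATP2 was fitted at 0.69 ± 0.53, QCR8 at -0.69 ± 0.50 and COX13 at 0.54 ± 0.51 log2 units in these readings. The signs of ATP2 rest in part on arrays 4 and 5, where its spots lay on opposite sides, at -0.08 and 0.82 on array 5. Those of QCR8 and COX13 did not hold against neighbouring spots, as given above.

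Leaving out array 3 produced the only calls among members. Without it ATP5 lay at -3.13 ± 0.67 and COX7 at 3.01 ± 0.67 in the channel reading (limma adjusted p = 0.000366 and 0.000567), and 11.3% of 602 genes were called. In the other reading they lay at 3.10 and -3.03, both with an adjusted limma p of 0.000625, and 13.3% of genes were called. At an unadjusted p under 0.05 there were 25.7% and 25.2% of all genes in these readings. Array 4 is then the only array with zzYra1 in channel 1, so its own spread does not enter the error. With arrays scaled to one spread, an alternative chosen after seeing the data, 0 members and 0 genes were called without array 3 in either reading, where 9 and 12 of 602 genes had an unadjusted limma p under 0.05.

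With values on at least 3 arrays, 26 members were tested in limma, 0 were called in either reading, and COX5A in the channel reading was the single one with an unadjusted p under 0.05, against 2% of all genes, and 1.74% in the other reading. Within arrays 1 to 3, 14 members could be tested and none was called. COX5A lay at 1.18 ± 0.50 there in the channel reading (limma adjusted p = 0.900, 0.0482 before adjustment), the one member under an unadjusted 0.05, where 4.29% of all genes were, and in the other reading no member was, beside 3.51%. Within arrays 4 and 5, which share a day in their labels, 4 members were tested in limma and none was called or had an unadjusted p under 0.05, where 2.56% of all genes did in the channel reading beside 6.23% in the other. Over arrays 3 and 4, of one orientation, COX7 alone of 16 members had an unadjusted p under 0.05 (limma, adjusted p = 0.958), against 5% of all genes. Over arrays 1, 2 and 5 COX5A was the one member tested, at 0.87 (limma adjusted p = 0.831), where 2.14% of all genes had an unadjusted p under 0.05.

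Genes that work beside the oxidative phosphorylation complexes were counted in the same way. On array 4 or 5 a value was present for 6 of 11 genes of the TCA cycle (54.5%), 8 of 43 assembly factors and translational activators of the complexes (18.6%), 3 of 9 genes of coenzyme Q synthesis, 5 of 13 mitochondrial carriers and porins, 6 of 23 genes of mitochondrial protein import, 1 of 5 HAP transcription factors, which activate respiratory genes, and 1 of 5 further subunits and regulators outside the list of 41. The subunit genes themselves were at 22 of 39 (56.4%), against 33.9% of all genes. The limma fit tested 2 TCA cycle genes, 3 assembly factors, 2 coenzyme Q genes, 1 HAP gene and 1 import gene. It also tested 1 gene of the further subunits and regulators. None of these genes was called in either reading, and no carrier had enough values to be tested. On array 3, where nearly every gene had a value, 13 of 43 assembly factors lay above the median gene, with a median of -0.35, against 19 of 40 subunit genes, and all 6 further subunits and regulators lay above it, with a median of 0.61. On array 2, 12 of 22 assembly factors lay above it, with a median of 0.03, and 1 of 4 further subunits and regulators did. On array 1, 5 of 17 assembly factors did, with a median of -0.12, and 2 of 6 further subunits and regulators, with a median of -0.25. Assembly factors above the median gene were 1 of 5 on array 4 and 1 of 4 on array 5. These gene lists were not compared by a test.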

How the data were processed

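The deposited values are log10 ratios of the channels, 1 column per array in 2 tables; all columns were used. The labels do not state the scale: taken as powers of 10, 28.25% to 94.25% of 400 values per array became ratios of whole numbers with denominators up to 3000 (relative tolerance 2e-09), against 3.25% or less for base 2 or e. The sources used here do not say how the authors handled background, dyes and missing values. Spots were named through GEO's platform annotation, with symbols updated by gene ID from RefSeq's table for the R64 assembly, which held all 41 members. No genome build is named, so no coordinates are given, and no sequences were used here.

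Values were multiplied by 3.32 to give log2, a gene took the mean of its spots, and each array's median gene was set to 0. No loess or quantile step was used. limma 3.58.1 (R 4.3.3) was fitted to all genes with values on at least 4 arrays, with Benjamini-Hochberg adjustment over all genes. The channel-reading fit was tested on simulated data of 725 genes with normal noise of each array's full spread. A shift of 3 log2 units was called for 92% of 100 genes, and 0.952% of 525 unshifted genes were called. A further 100 genes were shifted by 6 log2 units, and 100% of them were called. So many shifted genes ease the adjusted threshold, so the 92% does not carry over to data with few shifted genes. In the real data the largest fitted value in the channel reading, 3.00, was not called (limma adjusted p = 0.905). Members named are those of the list; the list, the related lists and the rules were chosen with earlier results of these data known. Precision is limited by the number of arrays.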

Additional observations from a re-analysis of the deposited data

Results flagged for a closer look

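In 3 of 23 sets with values on 4 or 5 arrays, one array stood apart, and its gap to the nearest value took up most of the range. A rate of 1 in 20 sets would give 1.15, but it holds only where the values of a set share one spread. The standard deviation over genes was 2.51 log2 units on array 4 and between 0.91 and 1.14 on the others. The expected number is therefore not reliable here. COX7 lay at -6.04 on array 4, against -0.35 to 0.30 on arrays 1 to 3. Its spots on array 4 gave -6.17 and -5.90, but set against neighbouring spots it lay at -1.81 there. SDH3 lay at -0.95 on array 2, against 0.28 to 0.50 on arrays 1, 3 and 4, but its array 3 value is the mean of spots at -0.83 and 1.39. The complex III median was 0.90 on array 1, from 3 of 9 genes, against -0.18 to -0.02 on the others, where array 5 gave 1 gene only.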

How the results depend on the processing

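Under 9 planned settings with all 5 arrays and under 4 with arrays of one table or orientation, no gene and no member was called in either reading; none of the members had values on all 5 arrays, so that setting tested none. Leaving out each array in turn gave 0 to 68 genes called in the channel reading, 0 to 80 in the other, and 0 to 2 members in each. With arrays scaled, chosen after seeing the data, it gave 0 to 3 genes in the channel reading, 0 to 4 in the other and 0 members. Each array holds both immunoprecipitates and yields 1 ratio, so the fit to these ratios already pairs them within the array. No further pairing was made. With the table as a random block (correlation -0.00895) no call changed.

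Member medians on arrays 1 to 5 were 2.87, -1.13, 0.13, 1.71 and 1.48 without centring, which by construction keeps each array's overall shift. Scaling gave 0.28 on array 1, and neighbouring spots gave 0.038, -0.21 and 0.69 on arrays 1, 3 and 4. Members with 1 spot gave -0.078 on array 4, an alternative chosen after seeing the data. The members' shares with a value stayed within their 95% intervals.

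Signs of uncalled members turned in 17 cases with no array left out. In the channel reading arrays 1 to 3 gave ATP5 0.34, COX7 -0.079 and COX8 0.060, arrays 3 and 4 gave COX6 -0.65, and arrays 4 and 5 gave COX9 -0.52. In the other reading arrays 1 to 3 gave ATP5 -0.38, COX7 0.049 and SDH3 -0.058. Arrays 3 and 4 gave ATP2 -0.67, COX8 0.036 and COX9 -0.26, arrays 4 and 5 gave COX9 -0.62, and arrays 1, 2 and 5 gave COX5A 0.87. Spot centring gave ATP2 -0.022, no centring COX5A 0.0044 and COX8 0.64, and scaling SDH3 -0.012. With each array left out, channel values ranged over -3.13 to 0.53 (ATP5), -0.25 to 0.56 (COX6), -0.11 to 3.01 (COX7), -0.68 to 0.27 (COX8), -0.44 to 2.43 (COX9) and -0.65 to 0.077 (SDH3). Other values ranged over -0.30 to 0.32 (ATP2), -0.55 to 3.10 (ATP5), -3.03 to 0.085 (COX7), -0.64 to 0.31 (COX8), -0.70 to 2.17 (COX9) and -0.30 to 0.43 (SDH3). Beyond the settings whose construction explains it, the cause was not tested.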
